A study of Mus musculus with 2 samples.

Results

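The metabolic enzyme genes printed in replicate on a mouse long noncoding RNA and mRNA array were Gapdh, Gk, G6pd2, Gusb, Hprt and Ldhal6b. Their spots were found by RefSeq accession, and each gene was represented by 1 probe printed in 20 spots, so the 6 genes held 120 of the 62513 spots on an array. They are 6 of the 112 genes whose probes carry a name here, and 9 other genes were printed in 20 spots in the same way. The samples were RNA of left kidneys and RNA of right kidneys of male mice, each hybridised to 1 array. The series description was read as 3 kidneys pooled per side, although its wording is not explicit. Mouse strain, age and treatment are not given in the sources used here. With 1 array per side, side cannot be told apart from array, and no test between sides was possible. Precision is limited by having only 2 arrays. The 20 spots are repeat readings of 1 hybridised pool, so an SD over spots measures spot noise alone, without the variation of mice or of RNA preparations. Of 82 entries listed for the neighbouring pathways and for kidney, testis and blood markers, 0 had a named probe. Ldhc, Pgk2 and Gapdhs were entered in more than 1 list. The labelled tissue therefore could not be set against its markers here, and no value is given for other pathway genes, which probes without a name may still measure.

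The 6 genes sit in different branches of metabolism. Gapdh encodes glyceraldehyde-3-phosphate dehydrogenase, which carries out the oxidative step of glycolysis. Ldhal6b encodes a lactate dehydrogenase A-like protein, from a family that interconverts pyruvate and lactate at the end of that pathway. G6pd2 is an intronless copy of the X-linked gene for glucose-6-phosphate dehydrogenase, the enzyme that opens the pentose phosphate pathway and supplies NADPH, and both G6pd2 and Ldhal6b are known as testis-expressed genes. Gk encodes glycerol kinase, which brings glycerol into glycolysis and lipid synthesis and is active in liver and kidney. Hprt encodes the purine salvage enzyme that rebuilds IMP and GMP from hypoxanthine and guanine. Gusb encodes lysosomal beta-glucuronidase, an enzyme of glycosaminoglycan breakdown that is known to respond to androgen in mouse kidney. Gapdh, Hprt and Gusb also serve widely as reference genes for other measurements.

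Probe sequences were not used here, and the sequence shown is that of the promoters. The 250 bases before the annotated start were read for all 6 genes from RefSeq (GRCm38.p6), and the number of CG dinucleotides, which read the same on both strands, was counted. Gk had 21 CG (67.2% G+C) and Hprt 17 (59.6%), while 83.7% and 76.5% of 32851 promoter windows of that length had fewer. Gapdh had 8, Gusb 3, Ldhal6b 2 and G6pd2 0, and the median window had 6. Only 7.87% of windows, G6pd2 among them, held no CG. The 3 sequences that show this range, the richest and the 2 poorest, follow in the direction of transcription with CG in capitals. Their positions are chrX:85776820-85777069 on the minus strand for Gk, chr17:5418768-5419017 on the minus strand for Ldhal6b and chr5:61808593-61808842 on the plus strand for G6pd2.
Gk: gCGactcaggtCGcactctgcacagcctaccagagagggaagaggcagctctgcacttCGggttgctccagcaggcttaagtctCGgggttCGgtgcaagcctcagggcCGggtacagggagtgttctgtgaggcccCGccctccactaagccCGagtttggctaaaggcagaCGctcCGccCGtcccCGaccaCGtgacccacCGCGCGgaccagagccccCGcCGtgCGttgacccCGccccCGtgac
Ldhal6b: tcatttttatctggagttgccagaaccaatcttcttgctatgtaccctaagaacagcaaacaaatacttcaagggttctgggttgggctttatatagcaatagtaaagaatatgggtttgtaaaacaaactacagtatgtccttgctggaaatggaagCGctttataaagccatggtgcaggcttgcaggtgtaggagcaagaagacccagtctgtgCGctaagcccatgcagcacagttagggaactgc
G6pd2: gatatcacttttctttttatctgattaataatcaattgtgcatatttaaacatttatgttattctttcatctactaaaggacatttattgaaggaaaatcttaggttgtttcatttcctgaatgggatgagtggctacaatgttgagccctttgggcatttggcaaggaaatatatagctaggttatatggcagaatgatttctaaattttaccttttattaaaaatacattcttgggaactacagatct
The order of CG content was not the order of probe signal, and a relation between them was not tested. Gapdh had the brightest probe with 8 CG, and the G6pd2 probe was well above background with 0. Signal of the G6pd2 probe was not separated from that of the X-linked gene, so it may not belong to the promoter shown. The CG counts describe the windows and say nothing of promoter activity.

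Probes of Gapdh, Hprt, Gk, Gusb and G6pd2 were well above background in 20 of 20 spots of either array, and only Ldhal6b was not. "Well above background" is the scanner software's own flag, and a gene was counted as above background when over 50 percent of its spots carried it. The 5 of 6 genes so counted stand beside 60.4% (left array), 65.5% (right array) and 59.2% (both arrays) of 59701 transcript probes. No spot on either array was saturated, so the brightest values have no ceiling from the scanner. Signals are given as log2 of the processed signal, a linear brightness after background subtraction and detrending, as mean ± SD over spots without an outlier flag.

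Gapdh was the brightest of the 6 probes. Its spots on the left array ran from 17.56 to 17.76 with a median of 17.63, and on the right array from 17.51 to 17.68 with a median of 17.59. The means were 17.63 ± 0.05 (left, SD, n = 18 spots) and 17.60 ± 0.05 (right, SD, n = 18 spots), a processed signal near 203147 and 198521. The spots of both sides overlapped. Only 14 of 59701 probes were brighter on either array, which placed Gapdh at the 99.98 percentile of transcript probes on the left and the 99.97 percentile on the right.

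Hprt came next. Its left spots ran from 15.30 to 15.46 with a median of 15.40, and its right spots from 15.27 to 15.53 with a median of 15.45. The mean was 15.40 ± 0.04 (left, SD, n = 18 spots) and 15.43 ± 0.06 (right, SD, n = 20 spots). The right spots spread wider and reached both lower and higher than the left ones. Hprt lay at the 97.8 percentile of probes on the left and the 97.9 percentile on the right.

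Gk and Gusb had signals close to each other. Gk spots ran from 12.77 to 12.97 on the left (median 12.92) and from 12.53 to 12.91 on the right (median 12.84), with means of 12.91 ± 0.04 (SD, n = 19 spots) and 12.84 ± 0.05 (SD, n = 18 spots). Gusb spots ran from 12.53 to 12.67 on the left (median 12.60) and from 12.33 to 12.57 on the right (median 12.49), with means of 12.60 ± 0.03 (SD, n = 18 spots) and 12.49 ± 0.06 (SD, n = 19 spots). For both genes the right spots reached lower and the sides overlapped. Gk lay at the 92.9 percentile on both arrays, Gusb at the 92.0 percentile on the left and the 91.9 percentile on the right.

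G6pd2, the intronless dehydrogenase copy, was the dimmest of the genes above background. Its left spots ran from 10.40 to 10.53 with a median of 10.44, and its right spots from 10.06 to 10.42 with a median of 10.32. The means were 10.45 ± 0.03 (SD, n = 19 spots) and 10.34 ± 0.06 (SD, n = 19 spots), or processed signals of 1395 and 1293. The sides overlapped: 8 of 20 left spots lay below the highest right spot, and 3 of 20 right spots lay above the lowest left spot. The signal was 3.31-fold over the 75th percentile of all transcript probes on the left and 3.08-fold on the right, at the 84.4 and 84.0 percentiles. Signal of this probe was not separated from that of the X-linked gene from which G6pd2 was copied, nor was that of the other probes separated from related copies.

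**Figure D1:**
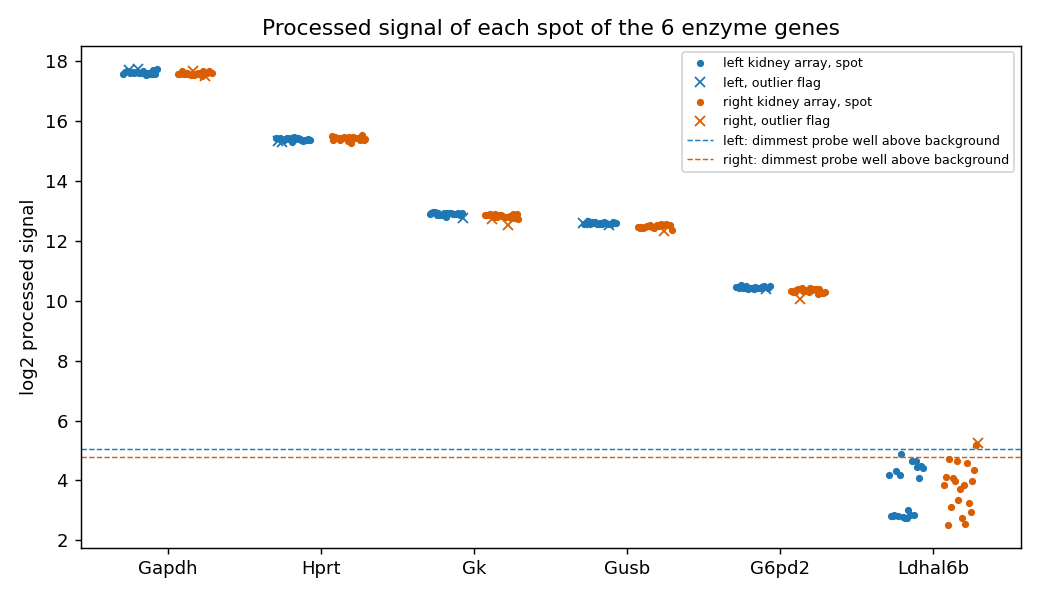
Log2 processed signal (y axis) of every spot of the 6 genes on the left and right kidney arrays. Crosses are spots with an outlier flag. Dashed lines mark the dimmest unflagged transcript spot well above background on each array, called a probe in the key. Spots of Gapdh, Hprt, Gk, Gusb and G6pd2 form tight groups between 10.06 and 17.76, while those of Ldhal6b lie between 2.51 and 5.27.

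In probe signal the order was Gapdh, Hprt, Gk, Gusb, G6pd2 and Ldhal6b on both arrays. This is an order of probe brightness, which also depends on each probe's own sequence, and not of transcript number. Neighbours in it were at least 1.90 apart between the lowest spot of the brighter and the highest of the dimmer, flagged spots included, except Gk and Gusb. Between those 2 genes the left gap was 0.10, while the lowest right Gk spot lay 0.04 below the highest Gusb spot (-0.04). That Gk spot had an outlier flag, and among unflagged spots the gap on the right was 0.17. Ranked only among the 35367 probes above background on both arrays, Gapdh stood at the 99.96 percentile on both arrays, Hprt stood at 96.2 (left) and 96.4 (right), Gk at 88.0 and 87.9, Gusb at 86.6 and 86.4, and G6pd2 at 73.6 and 73.1.

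**Figure D2:**
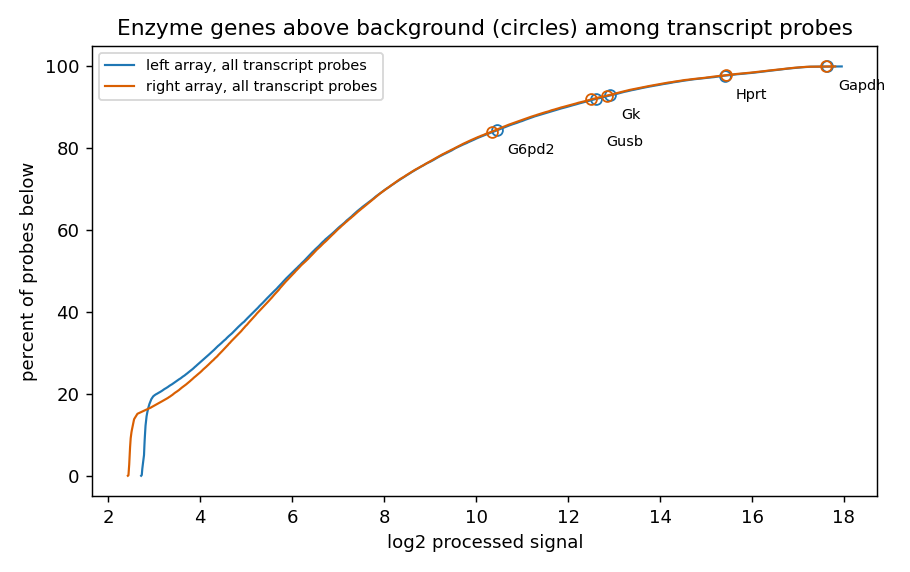
Percent of the 59701 transcript probes below a given log2 processed signal (y axis against x axis) on each array, with the mean of each enzyme gene above background as a circle. Hprt, Gk and Gusb sit between 91.9 and 97.9 percent, Gapdh at the top and G6pd2 near 84 percent.

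Ldhal6b, from the family that interconverts pyruvate and lactate, had 0 of 20 left spots well above background. Of its right spots 2 of 20 passed, 1 of them with an outlier flag. Its left spots ran from 2.76 to 4.87 with a median of 3.56, and its right spots from 2.51 to 5.27 with a median of 3.92. The dimmest unflagged transcript spot well above background on each array had 5.05 (left) and 4.77 (right). The left spots fell into a group from 2.76 to 3.03 and a group from 4.09 to 4.87, as the plot of all spots shows. In 3 left spots and 1 right spot the background-subtracted signal was below 0, to -15.6 and -5.99, while the processed signal was positive, so values at this floor have no order. No fold between sides and no rank among all probes is given for this gene. Its mean was below that of each of the 35367 probes above background on both arrays.

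The array carried 20 probes named as negatives, in 1200 spots, which give a scale for such dim spots. The median Ldhal6b spot without an outlier flag was above 79.9% (left array) and 81.0% (right array) of the unflagged negative spots. Over all spots, 3 of the 20 negative probes had a higher median than Ldhal6b on the left array, and 2 did on the right array. The software's weaker flag, a signal positive and significant against background, was carried by 11 of 20 left Ldhal6b spots (55%) and 18 of 20 right ones (90%), against 32.6% and 41.4% of negative spots. None of its spots passed the 95th percentile of the negative spots, at 5.30 (left) and 5.37 (right). The raw median brightness of its spots before background subtraction was 124 and 122.5, against 112.5 and 108 for negative spots. The median of Ldhal6b thus lay in the upper range of the negative spots on both arrays, but its spots did not all lie there. On the left array its lower group of spots, from 2.76 to 3.03, lay near the median of the negative spots, 2.82. The left Ldhal6b median of 3.56 fell between its lower and upper groups.

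**Figure D3:**
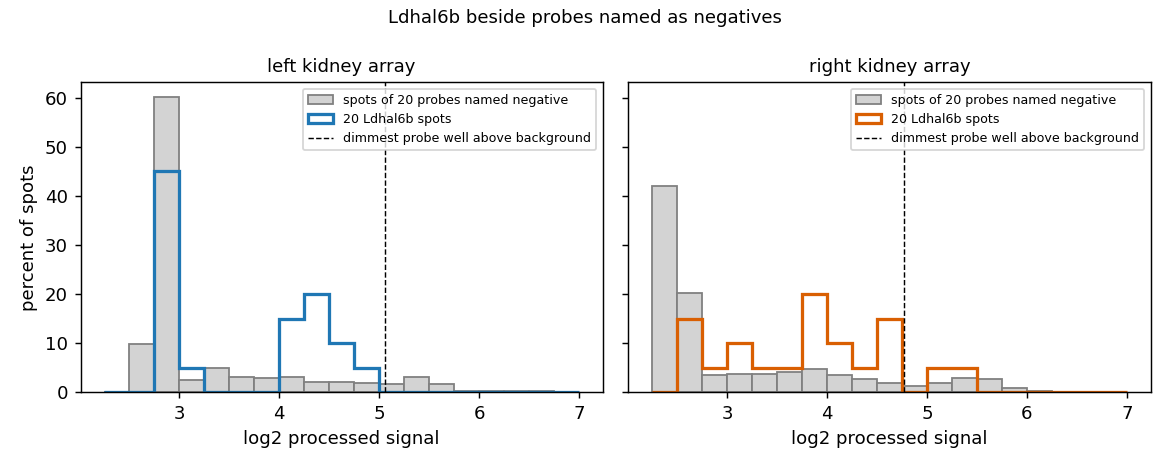
Percent of spots (y axis) by log2 processed signal (x axis) for the 20 Ldhal6b spots (outline) and the 1200 spots of probes named as negatives (grey), left and right arrays. Most Ldhal6b spots lie left of the dashed line, the dimmest unflagged transcript spot well above background, called a probe in the key. On the left 0 spots and on the right 2 spots carry the flag well above background.

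Left and right kidney pools gave nearly the same signal for the 5 genes above background. None of the 5 differed 2-fold, against 1.08% of the 35367 probes above background on both arrays. None differed 1.5-fold (5.11%) or 1.2-fold (26.7%). With only 5 genes, this does not set them apart from shares of 1.08% or 5.11%. Nearly all of those probes were read from 1 spot per array, while each of the 5 genes is a mean over 17 or 18 spot pairs. The shares are therefore not a like scale for the 5 genes. Gapdh, Gk, G6pd2 and Gusb had higher means on the left and Hprt a higher mean on the right, where 52.5% of all those probes were higher on the left and 47.5% on the right. Their median difference was 0.06, against 0.01 over all those probes. Differences are left minus right on the log2 scale after each array was scaled to its own 75th percentile, over spots at the same place on both arrays with no outlier flag on either.

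Gusb and G6pd2 had the highest left minus right differences, 0.0035 apart. Gusb stood at 0.11 ± 0.06 (SD, 18 spot pairs), or 1.08-fold. Its pairs ran from 0.0011 to 0.24, and all 18 were higher on the left. G6pd2 stood at 0.10 ± 0.06 (SD, 18 spot pairs), or 1.07-fold, with pairs from 0.02 to 0.22, all 18 higher on the left. Among the 9 other genes printed in 20 spots, Actb, Hsp90ab1, Ppia and Rpl13a also had all their unflagged pairs higher on the left. The rest of the 9 had pairs on both sides. Gk, the glycerol kinase gene, stood at 0.06 ± 0.06 (SD, 17 spot pairs), with 15 pairs higher on the left and 2 on the right. Gusb, G6pd2 and Gk lay past 1 SD of their spot pairs, while Gk with its flagged spots kept stood at 0.08 ± 0.09 (SD, 20 spot pairs) and did not. All of the 9 other genes printed in 20 spots except B2m and Nono also lay past 1 SD of their unflagged spot pairs. Lying past 1 SD is therefore not particular to the enzyme genes. Under quantile normalization Gusb was 0.04, Gk 0.01 and G6pd2 0.06, and under cyclic loess 0.0468, 0.0048 and 0.0545. The order of Gusb and G6pd2 turned under both of these, under normexp with quantile normalization and with flagged spots kept. Under quantile normalization and cyclic loess, Gusb and Gk lay inside the SD of their spot pairs given above. G6pd2 did so under cyclic loess (0.0545 against 0.0576).

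The 2 brightest enzyme probes differed by less than the spread of their spots. Gapdh stood at 0.03 ± 0.06 (SD, 17 spot pairs), with 13 of 17 pairs higher on the left, and turned negative under cyclic loess (-0.04) and under normexp background correction with quantile normalization (-0.0072). Hprt stood at -0.03 ± 0.06 (SD, 18 spot pairs), with 13 pairs higher on the right and 5 on the left, and turned positive under median scaling (0.01). Under quantile normalization, cyclic loess and normexp with quantile normalization Hprt stood at -0.09, -0.10 and -0.10, further from 0 than its spot pair SD.

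**Figure D4:**
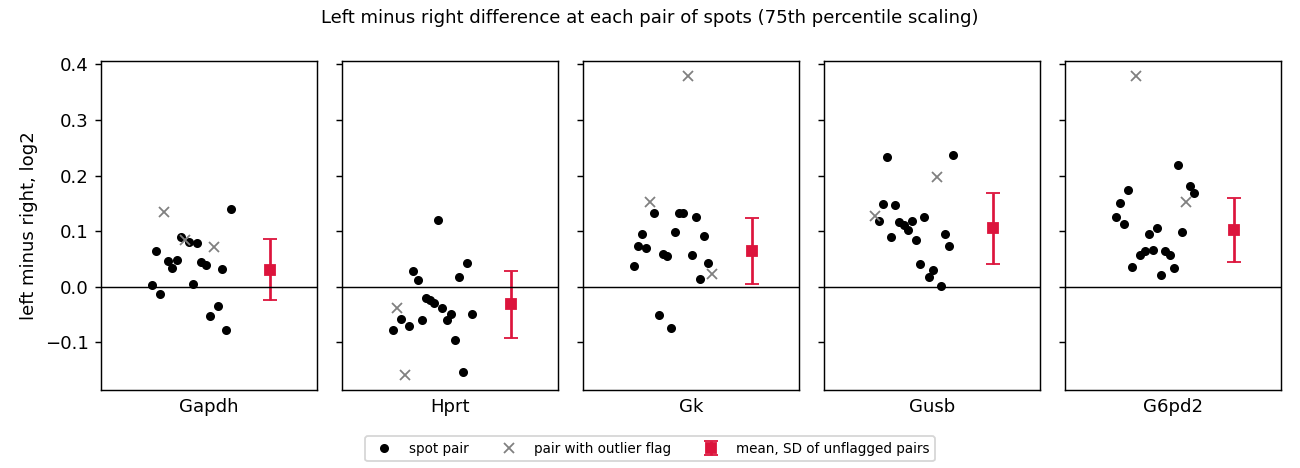
Left minus right log2 difference (y axis) at each pair of spots for the 5 genes above background, with the mean and SD of the unflagged pairs in red; crosses are pairs with an outlier flag on either array. All unflagged Gusb and G6pd2 pairs lie above 0, those of Gapdh and Hprt lie on both sides of it, and flagged pairs of Gk and G6pd2 reach 0.38.

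Other probes of like brightness also had medians above 0. Over probes within 0.25 log2 of each gene's mean signal, genes with replicate spots left out, the median left minus right difference was 0.01 at Gapdh (28 probes), 0.07 at Hprt (400), 0.06 at Gk (825), 0.06 at Gusb (862) and 0.05 at G6pd2 (1331). The robust SD of those probes, from the median absolute deviation, was 0.05 at Gapdh, 0.11 at Hprt and between 0.17 and 0.19 at the other 3. Measured from these medians the genes stood at 0.02 (Gapdh), -0.11 (Hprt), 0.0083 (Gk), 0.05 (Gusb) and 0.05 (G6pd2). All of these probes were read from 1 spot per array, so their spread includes single-spot noise, while each enzyme gene is a mean over 17 or 18 spot pairs. The robust SD is therefore a wide scale for the 5 genes, and lying inside it, as all 5 did, does not show that they differed as little as those probes.

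**Figure D5:**
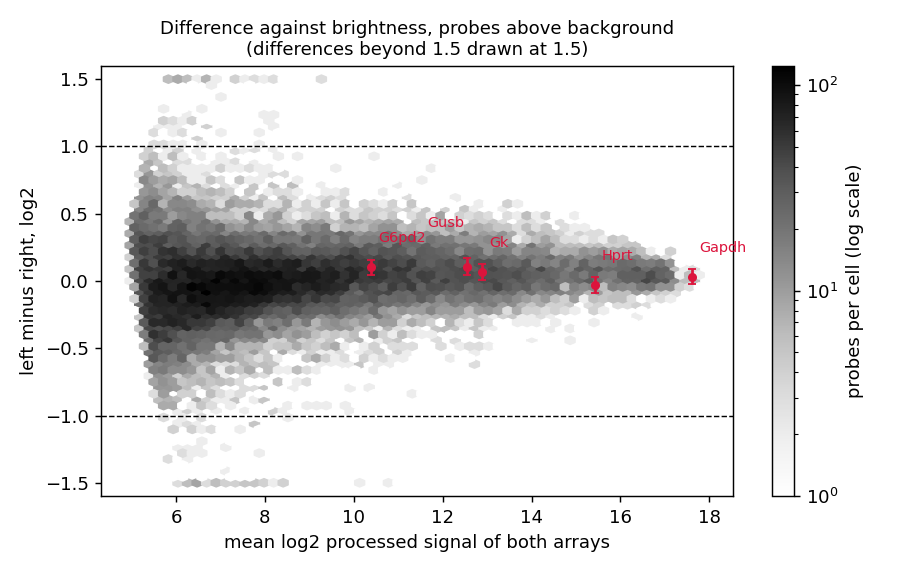
Left minus right log2 difference (y axis) against mean log2 processed signal (x axis) for the 35367 probes above background on both arrays (grey, darker for more probes), with the 5 enzyme genes and the SD of their spot pairs in red; dashed lines mark 2-fold. All 5 genes lie far inside the 2-fold lines, between -0.03 and 0.11.

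A ratio of 2 enzymes on one array does not depend on the array's linear scaling. Of the 10 pairs among the 5 genes, 3 changed between the sides by more than the combined SD of their spot pairs, and all 3 held Hprt. Pairs among the 9 other genes printed in 20 spots were not counted, so 3 of 10 is not shown to be particular to the enzyme genes. Gusb over Hprt was 0.14 higher on the left on the log2 scale (combined SD 0.09), which is 9.92% in the linear ratio. G6pd2 over Hprt was 0.13 higher (9.65%) and Gk over Hprt 0.10 higher (6.86%). The ratio of Gusb to G6pd2 moved least, by 0.0035 (0.243%), with a combined SD of 0.09. Gapdh over Hprt, both common reference genes, was 0.06 higher on the left with a combined SD of 0.08. The combined SD is that of single spot pairs, while each gene's difference is a mean over 17 or 18 pairs. Staying inside it therefore does not show that a ratio was unchanged. Unequal change of a pair does not say which of its genes moved. Among the 9 other genes printed in 20 spots, the nearest left minus right difference over the 2 arrays was that of B2m for Gapdh (0.01), Tuba1b for Gk (0.06), Rpl13a for both G6pd2 and Gusb (0.10) and Nono for Hprt (-0.03). These were chosen for being nearest, and others of the 9 lay further out, with Hsp90ab1 at 0.26, Actb at 0.20 and Tfrc at -0.12. Hsp90ab1 and Tfrc thus lay further apart from each other than any pair of the 5 enzyme genes.

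Replicate spots of the 5 genes above background varied less than the error the software assigned to them. The coefficient of variation of the processed signal over all 20 spots of the 5 genes was between 2.42% (G6pd2, left) and 5.70% (Gk, right). The software's own error was a median of 10% of the signal for each of them. It was also 10% for each of the 9 other genes printed in 20 spots, whose coefficients of variation lay below it too. A spread below this error is therefore not particular to the enzyme genes. The error was nearly the same for all of these genes, so it did not follow the spread of their spots and is no measure of it. For Ldhal6b the coefficients were 55.3% (left) and 57.0% (right), with software errors of 63.5% and 38.1%. The spots of the 6 genes were scattered over the array, from row 1 to row 384 and column 3 to column 164. Over the 20 positions, left and right signals of a gene had a Pearson's r between 0.21 (Gk) and 0.46 (Gapdh and Ldhal6b). This describes spots that share place and probe. Outlier flags fell on 15 of the 240 member spots of both arrays, 8 of them at the highest or lowest spot of their gene, so leaving them out narrows the SDs. Of all 59994 transcript spots per array, 34 (left) and 20 (right) had a flag, 8 and 7 of them on the 6 genes. Each of the 9 other genes printed in 20 spots also had flagged spots, so the flags are not particular to the enzyme genes. Among the 5 genes above background, the SD changed most in Gk on the right when flagged spots were kept, from 0.05 to 0.09. G6pd2 on the right went from 0.06 to 0.08. The software's detrending was followed by a narrower spot SD in 8 of 10 gene and array combinations. In Gapdh it was wider on both arrays, going from 0.02 to 0.05 (left) and from 0.03 to 0.05 (right). Over all 20 spots, the SD was also wider in B2m and Ppia on the left and in Actb on the right. It was narrower elsewhere among the 9 other genes, so a wider SD is not particular to Gapdh.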

How the data were processed

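Kidney RNA of each side was hybridised to 1 Agilent 1-colour array. Per the labels' protocols, the RNA was freed of rRNA and amplified by random priming. Per the submitters' processing notes and the file headers, Agilent Feature Extraction 11.0.1.1 turned the images into values. Per the file headers, background subtraction and detrending within the array gave the deposited intensity values. No step between arrays is recorded in the sources used here. The authors' deposited intensity table equals the processed signal in 62513 of 62513 rows per array (relative tolerance 1e-05), on a linear scale without centring, with column medians of 58.6 (left) and 61.0 (right). The array grid names another genome build than the gene table (GRCm38.p6), which served for names and promoter sequences alone.

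From the processed signals, log2 values were taken. Control spots, probes named as negatives and spots with a feature outlier flag (34 left and 20 right among transcript spots) were left out, spots of a probe were averaged, and 59701 probes remained. Differences were scaled by each array's 75th percentile (421 left, 420 right), and folds of 2, 1.5 and 1.2 were counted. Accessions of 6 of 6 genes matched the gene table without versions, 4 with the same version. Members, lists and measures were chosen with earlier results of these data known. The genes named are the 6 members and, beside each of the 5 above background, the other replicate-spot gene with the nearest difference. Hsp90ab1, Actb and Tfrc are named as well, as other replicate-spot genes whose differences lay further out. Ppia is named where spot pairs and spot SDs of the other replicate-spot genes are given. No p-value was computed. The counting and ranking were tested on simulated data with planted changes larger than 2-fold. This checks the code alone and does not bear on differences as small as those of the 5 genes. Alternatives were median, quantile, cyclic loess and no scaling, normexp with an offset of 50 on the median spot and background signals, flagged spots kept, medians over spots, other detection limits, other rankings and others chosen once the values had been seen, a correction by the 18 nearest probes and the background-subtracted signal. The software was limma 3.58.1 in R 4.3.3 for normalization, with pandas 2.3.3, numpy 2.4.6 and scipy 1.17.1 in Python 3.11.15 for the rest and matplotlib 3.10.9 for plots.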

Additional observations from a re-analysis of the deposited data

How the results depend on the processing

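Of 40 alternative left minus right differences of the 5 genes above background, 6 moved by more than the SD of the spot pairs. Gapdh went to -0.0389 under cyclic loess. Gusb went to 0.0361 under quantile normalization and 0.0317 under normexp with quantile normalization. Hprt went to -0.0922 under quantile normalization, -0.0993 under cyclic loess and -0.0970 under normexp with quantile normalization. The cause was not tested. Gene counts stayed within 1.5 times under the alternatives run. The 5 genes above background became 6 on each array with the positive and significant flag, and the 4 genes higher on the left became 5 under median scaling and 3 under cyclic loess and under normexp. Correction by the nearest 18 probes, chosen after seeing the data, left Gusb at 0.11, G6pd2 at 0.11, Gk at 0.05, Gapdh at 0.02 and Hprt at -0.03. None of 34 alternative levels moved by their spot SD. Of 30 alternative percentiles 12 moved, 10 of them when only probes above background were ranked, and 5 of 22 spot SDs moved past 1.5 times. Ldhal6b has no alternative difference, since its signal was not well above background. No paired analysis was possible because each side has 1 array. Signal over background limits the reading of Ldhal6b alone among the 6 genes.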
